A study of Mus musculus with 24 samples.

Results

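The change in RNA that mouse TH1 cells made on a second encounter with antigen was compared with the change that naive CD4 T cells made on activation. All 24 of the 24 libraries of the study entered the comparison, because each of the 4 groups is needed for a difference of 2 responses. Groups were taken from the titles, and libraries were paired by the number in the title, 1 to 6. Every group had the genotype OT2Nur77GFP+/-. Such mice carry the OT-II transgenic T cell receptor, which recognises ovalbumin, together with a green fluorescent protein reporter under Nr4a1 (Nur77) control elements, so the control groups carried both as well. Naive cells were isolated from spleens (6 libraries), and a matching set received 6 hours of stimulation, by a stimulus that the labels do not name, to give activated naive cells (6 libraries). TH1 effector cells had been cultured for 5 days under TH1 conditions (6 libraries). Reactivated TH1 cells had then spent 6 hours with macrophages that carried antigen (6 libraries). The naive response is the log2 fold change of activated naive over naive cells. The recall response is the log2 fold change of reactivated TH1 over TH1 effector cells, and the difference is the recall response minus the naive response. A gene with a higher difference rose more, or fell less, in TH1 cells. Cells were sorted before RNA was extracted, and libraries were made with a stranded kit. Nothing in the labels says whether the 6 libraries of 1 group are 6 mice or 6 cultures, and each p-value then measures the spread among libraries, which may be technical. The 2 arms also differ in how the cells were stimulated and in the presence of macrophages, and cell state, stimulus and macrophages cannot be told apart.

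Naive CD4 T cells are small resting cells held in that state by trophic signals such as interleukin-7 and by transcription factors of the KLF and FOXO families. Receptor signalling through calcium, MAP kinases and NF-kB induces immediate-early transcription factors, and the cell then enlarges and takes up amino acids and glucose before it divides. TH1 effector cells have already passed through this transition, keep open chromatin at cytokine genes under T-bet, and can transcribe interferon-gamma and chemokine genes within hours of seeing antigen again.

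Each library held between 18457653 and 34262645 gene counts. Of the 16 T cell identity genes in the files, none was at 0 counts in any group, and their summed level lay between 5502 and 9166 CPM, the count scaled to the library's total, in every library. Of 27 macrophage markers, 24 were in the files. Their summed level was 167.6 to 202.6 CPM in naive, 66.01 to 86.7 in activated naive, 66.7 to 75.4 in TH1 effector and 79.2 to 98.2 in reactivated TH1 libraries, with Ctss, which T cells also express, the top gene in each group. Several defining markers were close to absent in effector libraries and detected in reactivated ones: Lyz2 rose from a mean of 0.0697 to 5.98 CPM, C1qb went from 0 counts to 1.503 CPM, and Csf1r from 0 counts to 0.724 CPM, while Lyz1 and Marco had 0 counts in all groups. The part of macrophage RNA in the recall response was not tested. Fewer cells of a type and less RNA per cell cannot be told apart in such bulk samples.

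Of 12584 genes tested, 8620 had a difference past the threshold of 0.05 on the adjusted p (68.5%), 4345 of them higher (34.5%) and 4275 lower (34.0%) in the recall response. Adjusted p-values are from edgeR's quasi-likelihood test, except that ranges given over all alternatives also cover DESeq2's Wald test and edgeR's test for a change above 1.5-fold. A difference of at least 2-fold was called for 1890 genes in the higher (15.0%) and 1937 in the lower direction (15.4%), 3827 in all (30.4%). The median difference over all genes was -0.0051 on the log2 scale, a value that the scaling sets near 0. The naive response was the larger one: its median absolute log2 fold change was 0.92 against 0.65 for recall, and the difference between them had a median size of 0.65. Activation changed 10336 genes in naive cells (82.1%), with 5201 rising (41.3%) and 5135 falling (40.8%); 5607 changed at least 2-fold (44.6%), 2669 up (21.2%) and 2938 down (23.3%). Recall changed 10111 genes in TH1 cells (80.3%), with 5051 rising (40.1%) and 5060 falling (40.2%); 4138 changed at least 2-fold (32.9%), 1667 up (13.2%) and 2471 down (19.6%). Of the called differences, 7625 (88.5%) had the same sign in all 6 numbers. The lists of genes used here hold 787 genes, and edgeR's fitted log2 values are given with an SE from the 6 numbers. Within sequencing run 1 alone (numbers 1 to 3) 3788 genes were higher and 3880 lower, and within run 2 alone (numbers 4 to 6) 3367 were higher and 3439 lower.

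The 2 responses share no library. Across genes, which are not independent replicates, they correlated with Pearson's r = 0.52 and Spearman's rho = 0.58 (12584 genes). Both responses rose for 3585 genes and both fell for 3411, while 779 rose in naive and fell in TH1 cells and 710 did the reverse. With at least 2-fold on each side, 1069 genes rose in both, 1474 fell in both, 205 rose in naive and fell in TH1 cells, and 85 fell in naive and rose in TH1 cells. Of the 1190 genes that activation raised at least 4-fold in naive cells, recall raised 802, lowered 202 and left 186 without a call, with a median recall response of 1.03. The 1452 genes that fell at least 4-fold in naive cells had a median recall response of -1.50, with 1170 falling and 94 rising. Seen from the other side, 554 genes rose at least 4-fold on recall, and 370 of them rose and 46 fell in naive cells.

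Most called differences were thus differences of degree within a shared direction or a response called in 1 state. Among the 4345 higher differences, 1764 genes fell in both states and fell less on recall, 846 fell in naive cells with no call on recall, 710 fell in naive and rose in TH1 cells, 526 rose in both and 485 rose on recall alone. Among the 4275 lower ones, 1794 rose in both states and rose less on recall, 719 rose in naive cells with no call on recall, 779 rose in naive and fell in TH1 cells, 502 fell on recall with no naive call and 465 fell in both. These classes describe the called genes from the same libraries that gave the call and carry no test of their own. Among the genes named here, Bcat1, Bcl2, Bhlhe40, Cd160, Cd247, Cox5a, Crem, Csf2, Dgka, Eomes, Fosl1, Gbp2, Gnl3, Il12rb2, Il21, Jun, Lss, Nipal3, Satb1, Spry1, Tnfsf9, Traf5, Wdr12 and Xcl1 overlap exons on the other strand in GENCODE M21, and Cd247, Gnl3, Ifng, Satb1 and Traf5 overlap a gene on their own strand. Because it is not stated whether counting used strand, reads of these pairs cannot be told apart, and members of the Ifit, Oas, H2 and Hspa1 families may share reads.

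**Figure D1:**
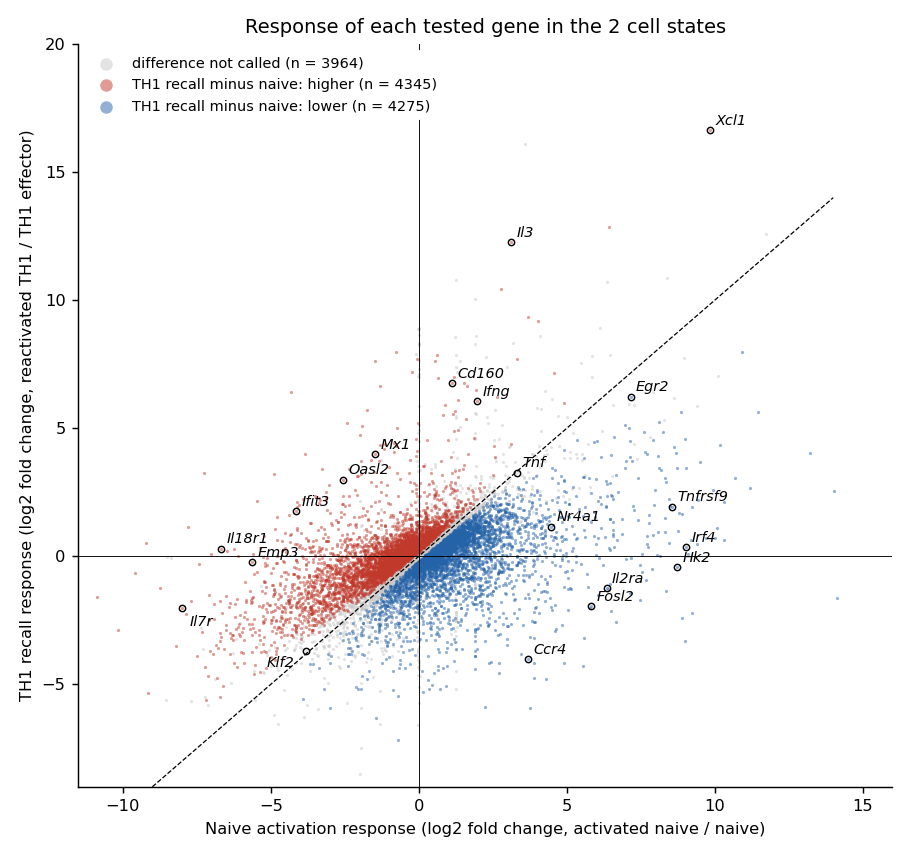
Each point is 1 of 12584 tested genes, with the naive response (log2 fold change) on the horizontal axis and the recall response on the vertical axis; the dashed line marks equal responses. Red points (4345) lie above the line with a called higher difference and blue points (4275) below it with a called lower difference; Irf4, Hk2 and Tnfrsf9 lie far to the right and Il7r and Il18r1 far to the left.

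Transcription factors induced by receptor signalling mostly responded less on recall. Of 31 tested immediate-early genes, 19 had a lower and 8 a higher difference, against 34.0% and 34.5% over all genes. The median difference was -0.99, against -0.0051 over all genes. The median response of the 31 genes was 2.54 in naive and 0.47 in TH1 cells. Irf4, a factor that scales with receptor signal strength and lies at chr13:30749226-30766976 (GENCODE M21 on mm10), showed the lowest difference among genes with a mean of 1 CPM or more in every group, 10 CPM in the highest and 1 sign in all 6 numbers. Its lowest, median and highest CPM were 4.63, 7.04 and 8.12 in naive and 2580.5, 3726 and 3825 in activated naive libraries. They were 536, 679 and 829.6 in TH1 effector and 655, 878 and 1027 in reactivated TH1 libraries. The naive groups lay far apart, whereas effector and reactivated libraries overlapped and all of them stood well above naive cells at rest. The naive response was 9.03 ± 0.19 (SE over the 6 numbers) and the recall response 0.35 ± 0.059, a difference of -8.67 ± 0.15 with adjusted p = 9.45e-20. Myc, the driver of cell growth, followed the same pattern. Its median level went from 63.8 to 1071 CPM on naive activation and from 476 to 616 CPM on recall (difference -3.62 ± 0.14, adjusted p = 4.52e-14).

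Nr4a1, the receptor-signal gene whose control elements drive the reporter in these mice, rose in naive cells in all 6 numbers. On recall it rose in numbers 1 to 4 only. Naive libraries held 239.2, 373 and 801 CPM (lowest, median, highest) and activated naive libraries 7143, 7689.6 and 12800.5. Effector libraries held 133, 296 and 498 CPM and reactivated ones 245, 589.6 and 1918. Naive and activated naive libraries did not overlap, while effector and reactivated libraries did. By number, the log2 recall response was 3.85, 2.11, 0.68, 1.40, -0.030 and -0.69 for numbers 1 to 6, so it was negative in numbers 5 and 6, and the naive response lay between 3.86 and 4.90. The difference of -3.31 ± 0.75 (adjusted p = 5.98e-05) ranged from -5.13 to -0.0075 over the numbers. Its relatives diverged from each other. Nr4a2 rose by 8.49 ± 0.18 in naive and 1.97 ± 0.50 in TH1 cells (difference -6.52 ± 0.56, adjusted p = 6.65e-09). Nr4a3 rose by 8.13 ± 0.33 and 5.24 ± 0.74, and its smaller difference of -2.89 ± 0.63 (adjusted p = 0.00142) was -1.27 in run 1 alone, with adjusted p = 0.130 (5.27e-05 to 0.130 over all alternatives).

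Egr2, a factor linked to restraint of T cell activation, responded more nearly alike in both states. Its level was 3.10, 4.47 and 5.21 CPM in naive and 528, 556 and 805 in activated naive libraries. It was 2.01, 5.07 and 7.35 CPM in effector and 296, 362 and 409 in reactivated libraries. Stimulated and resting libraries were fully apart in both states, and the difference was -0.93 ± 0.31 (adjusted p = 0.000627; in run 2 alone it was -0.43 with adjusted p = 0.128, and over all alternatives adjusted p ranged from 3.19e-06 to 0.128). Egr3, its close relative, differed by -1.42 ± 0.21 (adjusted p = 0.000813), with -1.35 and adjusted p = 0.0810 in run 2 alone (1.61e-06 to 0.0810 over all alternatives). Egr1, the classical immediate-early gene, rose by 3.57 ± 0.15 in naive cells, and its recall response of 0.51 ± 0.51 missed the threshold (adjusted p = 0.174; difference -3.06 ± 0.61, adjusted p = 2.12e-05).

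The AP-1 family, dimers of FOS, JUN and ATF proteins, split by member. Fos, Fosb and Jun fell in both states and fell more in naive cells. Jun went from a median of 509.8 to 18.8 CPM in naive and from 136 to 52.9 CPM in TH1 cells (difference 3.44 ± 0.15, adjusted p = 1.28e-11). The differences of Fos and Fosb were 2.77 ± 0.60 and 3.98 ± 0.62 (adjusted p = 0.000111 and 9.43e-06). The alternative FOS-like members went the other way. Fosl1 had 0 counts in all naive libraries and 37.9, 43.6 and 51.9 CPM after activation, a rise of at least 2176-fold against a floor of 3 counts over the group. On recall Fosl1 rose from 0.807, 1.17 and 2.15 to 20.4, 21.9 and 27.2 CPM, a recall response of 4.03 ± 0.22. Fosl2 rose from a median of 7.19 to 368 CPM in naive cells and fell from 234.2 to 49.3 CPM on recall (difference -7.78 ± 0.33, adjusted p = 5.53e-10). Atf3, a stress-induced member, had 0 counts in naive libraries and 58.9, 73.6 and 126 CPM after activation, at least 4215-fold more, and fell from 31.1, 46.9 and 62.4 to 11.4, 15.6 and 19.8 CPM on recall. Crem, which encodes repressors that bind cyclic AMP response elements, rose by 3.84 ± 0.23 in naive and fell by 2.51 in TH1 cells on the log2 scale (difference -6.35 ± 0.25, adjusted p = 1.11e-11). Fitted log2 values of genes with 0 counts in a group depend on a prior count and are not bounds.

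Of 32 tested feedback regulators of receptor signalling, 19 were lower and 12 higher, with a median of -0.85; the shares over all genes were 34.0% and 34.5%. Dusp4, a phosphatase that acts on MAP kinases, had a median of 0.171 CPM in naive, 54.3 in activated naive, 125 in effector and 184 in reactivated libraries (difference -7.91 ± 0.44, adjusted p = 9.28e-12). Spry1, an inhibitor of RAS signalling, rose by 9.04 ± 0.15 in naive and 3.46 ± 0.33 in TH1 cells. Socs3, an inhibitor of cytokine receptor signalling, fell by 6.12 in naive and by 2.75 in TH1 cells. Dgka, a diacylglycerol kinase that damps receptor signalling, fell from 1752, 1987 and 2124 CPM to 149, 184 and 285 in naive cells and rose from 242.05, 288 and 314 to 270.4, 373 and 418 CPM on recall. Its difference of 3.60 ± 0.037 (adjusted p = 5.8e-12) ranged only from 3.47 to 3.71 over the numbers.

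**Figure D2:**
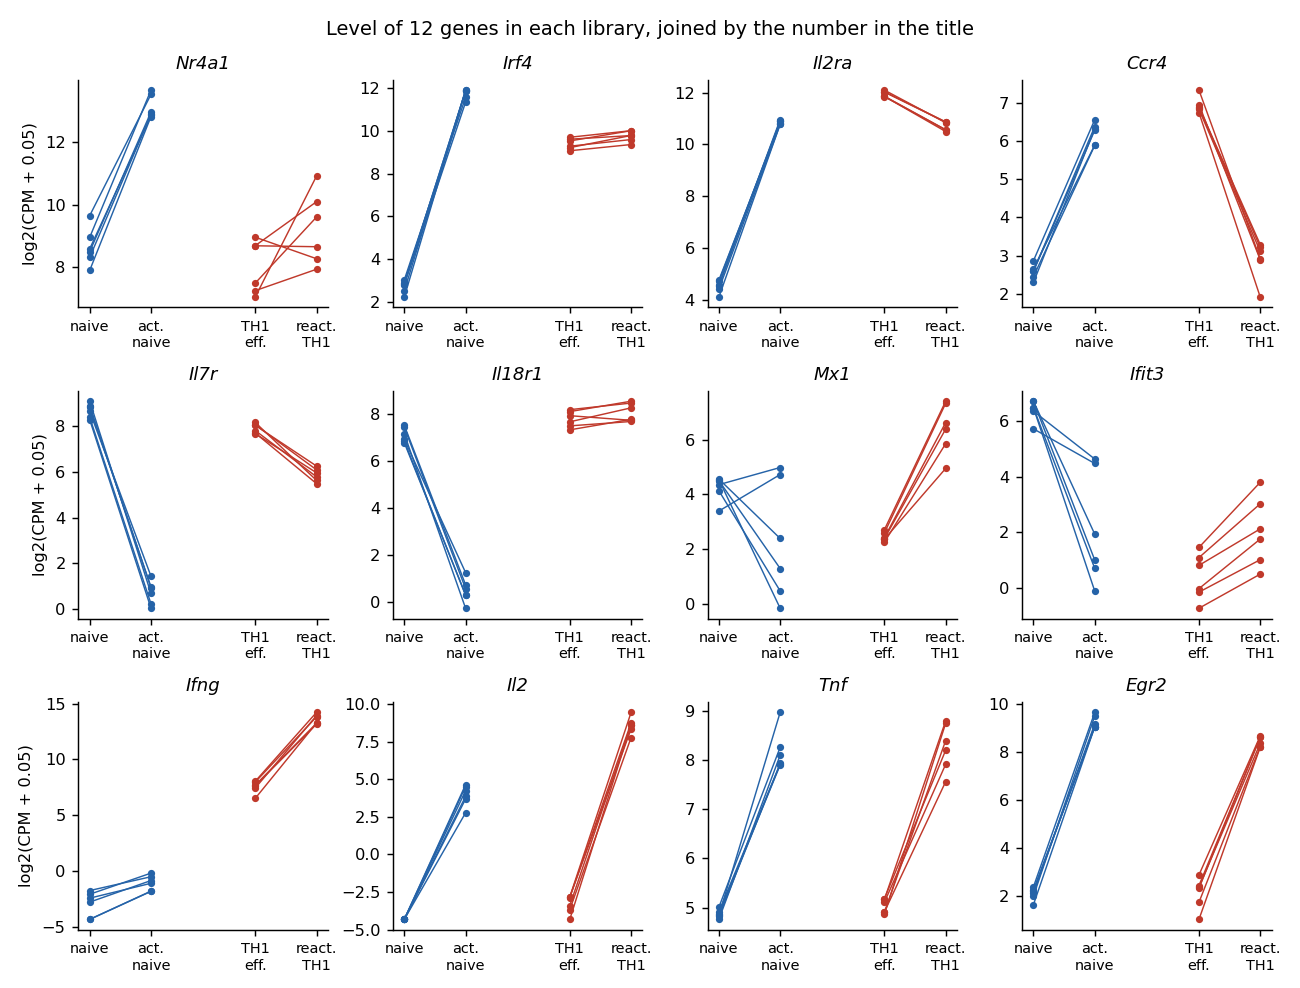
Level of 12 genes as log2(CPM + 0.05) in each of the 24 libraries, blue for naive and activated naive and red for TH1 effector and reactivated TH1, with lines joining libraries of the same number. Irf4 and Il2ra climbed steeply in all 6 naive pairs, Ccr4 climbed in naive and fell in TH1 pairs, and Mx1 rose in all 6 TH1 pairs but in only numbers 5 and 6 of the naive pairs.

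Chemokine genes had the highest median recall response of the 31 gene lists. Of 12 tested chemokine genes, 11 rose on recall and 10 on naive activation, with medians of 7.19 and 3.73. Over all genes 40.1% rose on recall and 41.3% on naive activation. The difference was higher for 4 and lower for 2, against 34.5% and 34.0% over all genes. The higher count was 2 in run 2 alone and without number 3, and 8 by DESeq2's Wald test. Of 24 tested cytokine genes, 17 rose on recall and 11 in naive cells, against 40.1% and 41.3% of all genes. The difference was higher for 6 and lower for 5, against 34.5% and 34.0% over all genes. Ifng (chr10:118441046-118445892), the signature TH1 cytokine, was at 0, 0.116 and 0.249 CPM in naive and 0.235, 0.463 and 0.833 in activated naive libraries. It reached 91.2, 204 and 264 CPM in effector and 9168, 12114 and 19064 CPM in reactivated libraries. Every reactivated library was far above every effector library, while the highest naive library just exceeded the lowest activated naive one. The recall response was 6.05 ± 0.21 and the naive response 1.97 ± 0.44 (adjusted p = 0.0251), a difference of 4.08 ± 0.55 (adjusted p = 0.00502).

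Il3, a growth factor for myeloid cells, was near 0 in 3 of the groups and at 670.1, 868 and 1274 CPM after recall. Naive libraries held 3 Il3 counts in all, so the naive rise of 10.4-fold has a counting interval of 3.26 to 53.0. The Il3 difference was 9.14 ± 1.14 (adjusted p = 0.00193); without number 5 it was 7.83 with adjusted p = 0.0541, and over all alternatives adjusted p ranged from 1.87e-14 to 0.0867. Xcl1, a chemokine for cross-presenting dendritic cells, rose from 0, 0.0490 and 0.0961 to 24.5, 38.5 and 70.0 CPM in naive and from 0, 0.0152 and 0.0577 to 1913, 2999.8 and 3507 CPM in TH1 cells (difference 6.80 ± 0.70, adjusted p = 4.44e-05). Ccl3, which attracts monocytes and T cells, went from 0, 0.0184 and 0.107 to 2.73, 3.35 and 7.52 CPM on naive activation and from 0.317, 0.597 and 1.64 to 4352, 5286 and 7373 CPM on recall. Its difference of 6.42 ± 0.81 (adjusted p = 0.00583) missed the threshold without number 3 (5.70, adjusted p = 0.0521), without numbers 5 and 6 (6.12, adjusted p = 0.0985) and in run 2 alone (5.61, adjusted p = 0.110); over all alternatives adjusted p ranged from 4.65e-14 to 0.110. Ccl4, a closely related chemokine, rose in both states, and its difference of 2.47 ± 0.88 had adjusted p = 0.13. Over the alternatives the Ccl4 difference ranged from 0.37 to 3.46 and its adjusted p from 0.00888 to 0.972, with a call by DESeq2 (0.00888) and without number 4 (0.0201). Ccl9, a chemokine that macrophages also make, appeared at 86.6, 129.8 and 155 CPM after recall from a median of 0.0911 CPM. The Ccl9 difference of 7.66 ± 0.37 (adjusted p = 0.000289) was 5.78 with adjusted p = 0.920 without number 3; over all alternatives adjusted p ranged from 2.80e-11 to 0.938. The macrophage markers Lyz2, C1qb and Csf1r rose in the same libraries. The part of macrophage RNA in the recall rise of Ccl3, Ccl4, Ccl9 and the other genes given here was not tested.

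Other cytokines fell on recall or had differences that missed the threshold. A missed threshold does not show like responses where naive libraries held 0 counts. Il2, the T cell growth factor, had 0 counts in naive libraries, 6.75, 16.6 and 24.8 CPM after naive activation and 219, 391 and 698 CPM after recall from a highest effector value of 0.0912 CPM. The naive rise was at least 774-fold, and the fitted difference of 0.83 had adjusted p = 0.782, whereas the 6 numbers gave values from 2.12 to 3.98. Tnf, an inflammatory cytokine made early by both cell states, moved from 27.0, 28.8 and 32.1 to 239.8, 260.2 and 504 CPM and from 29.1, 32.2 and 36.2 to 189.5, 317 and 447 CPM. Both the resting and the stimulated ranges overlapped between states, and the difference was -0.061 ± 0.22 (adjusted p = 0.819). Lif, a cytokine of the interleukin-6 family, rose from 0.890, 1.12 and 2.400 to 92.6, 125 and 158.1 CPM in naive and fell from 327, 382 and 427 to 119.9, 157.8 and 214 CPM in TH1 cells (difference -7.68 ± 0.29, adjusted p = 4.5e-14). Csf2, Il10 and Il21 had 0 naive counts, reached medians of 118, 96.5 and 192 CPM after recall, and had differences of -1.25, -2.52 and -4.34 with adjusted p = 0.319, 0.173 and 0.199. The Il21 difference was called by DESeq2 (adjusted p = 0.000646), and its adjusted p ranged from there to 0.476 over the alternatives. For Csf2 the fitted value is negative while the 6 numbers gave 0.34 to 1.39.

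Among ligands of the TNF superfamily, 3 of 10 tested were higher and 4 lower, against 34.5% and 34.0% over all genes. Cd40lg, which licenses B cells and dendritic cells, rose on recall from a median of 56.1 to 277 CPM, and its naive response was -0.12 ± 0.25 (adjusted p = 0.558; difference 2.23 ± 0.19, adjusted p = 5.25e-07). Tnfsf9, the ligand of 4-1BB, rose by 3.27 ± 0.28 on recall with a naive response of -0.32 ± 0.20 (adjusted p = 0.232). Tnfsf4, the OX40 ligand, had the lower difference of -4.17 ± 0.45 (adjusted p = 1.23e-06), having risen in both states.

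Of 30 tested costimulatory and inhibitory receptors, 20 had a lower and 7 a higher difference, with a median of -1.42, against 34.0% lower and 34.5% higher over all genes. Il2ra (chr2:11642807-11693193), the high-affinity chain of the interleukin-2 receptor, held 17.1, 23.4 and 27.0 CPM in naive and 1757, 1851 and 1996 in activated naive libraries. Effector libraries held 3689, 3947 and 4395 CPM and reactivated libraries 1449, 1676 and 1877. Activated naive and reactivated libraries had come to overlapping levels from opposite sides, the former rising and the latter falling. The difference was -7.60 ± 0.12 (adjusted p = 1.08e-23). Ctla4, an inhibitory receptor for B7 ligands, rose by 2.08 ± 0.59 in naive cells from 1.42, 2.35 and 3.60 CPM to 2.72, 11.3 and 21.1, and fell on recall from 496, 586 and 720.1 to 54.9, 88.7 and 141 CPM. Tnfrsf8 (CD30) had 0 naive counts and a median of 0.0544 CPM after activation, against a fall from 70.5, 147 and 178 to 4.43, 7.77 and 8.75 CPM on recall.

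Pdcd1, which encodes the inhibitory receptor PD-1, rose in both states, from a median of 1.45 to 184 CPM in naive and from 7.95 to 139 CPM in TH1 cells (difference -3.27 ± 0.29, adjusted p = 7.96e-11). Havcr2, which encodes TIM-3, reached 69.5, 156.9 and 228 CPM on recall, and its difference of 0.42 ± 0.38 had adjusted p = 0.914. Lag3, a receptor for MHC class II, rose in both states, and its difference of -1.67 ± 0.36 (adjusted p = 0.00282) missed the threshold in each run alone (-1.48 with adjusted p = 0.0667 and -2.03 with adjusted p = 0.0526; 2.34e-05 to 0.0667 over all alternatives). Cd160, a receptor for HVEM, was among the genes with a higher difference. It held 1.54, 2.61 and 2.88 CPM in naive and 4.14, 5.59 and 6.399 in activated naive libraries. Effector libraries held 0.798, 1.03 and 2.01 CPM and reactivated libraries 88.8, 127 and 147. The reactivated group stood more than 10-fold above the other 3, and the difference was 5.62 ± 0.37 (adjusted p = 1.83e-14).

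Of 24 tested genes of the TH1 programme, 11 were lower and 7 higher, against 34.0% and 34.5% over all genes. Tbx21, which encodes the lineage factor T-bet, rose from 0.0480, 0.0838 and 0.205 to 31.5, 38.2 and 47.7 CPM on naive activation and from 83.1, 101 and 111 to 143, 196 and 240.99 CPM on recall. Both rises separated the groups fully, and the difference in fold was -7.36 ± 0.35 (adjusted p = 1.05e-15). Cxcr3 and Bhlhe40, a TH1 chemokine receptor and a factor needed for cytokine production, had lower differences of -8.54 ± 0.32 and -7.98 ± 0.67 (adjusted p = 3.22e-15 and 4.85e-11). Il12rb2, the signalling chain of the interleukin-12 receptor, rose by 4.43 ± 0.15 in naive and fell by 1.62 in TH1 cells. Eomes, the T-box relative of T-bet, rose from 0.532, 1.10 and 1.505 to 35.0, 54.6 and 71.4 CPM on recall and had a higher difference of 4.44 ± 0.88 (adjusted p = 3.2e-06). Il18r1, the interleukin-18 receptor chain, had the highest difference among genes at 1 CPM or more in every group. It was at 109, 131 and 183 CPM in naive, 0.769, 1.29 and 2.30 in activated naive, 160.2, 223 and 291 in effector and 205, 263 and 374 in reactivated libraries. Activated naive libraries stood alone at the low end, and the other 3 groups lay within a few-fold of each other. The difference was 6.98 ± 0.31 (adjusted p = 3.83e-13), with a recall response of 0.29 ± 0.11 that missed the threshold (adjusted p = 0.11).

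Of 16 tested genes of other helper lineages, 10 were lower and 2 higher, against 34.0% and 34.5% over all genes, with a median of -1.56. Ccr4, a chemokine receptor of TH2 and regulatory cells, ranked first among the genes that rose in naive and fell in TH1 cells by the smaller of its 2 changes, given a mean of 1 CPM in every group. Its levels were 4.86, 5.97 and 7.23 CPM in naive and 59.2, 79.2 and 94.6 in activated naive libraries. They were 108, 118 and 161.97 CPM in effector and 3.71, 8.02 and 9.71 in reactivated libraries. All 6 pairs rose in one state and all 6 fell in the other (difference -7.70 ± 0.19, adjusted p = 2.54e-15). Among 14 tested genes of cytotoxic granules, 8 were higher and 5 lower, against 34.5% and 34.0% over all genes. Serpinb9 and Serpinb6b, inhibitors that protect cells from granzymes, fell in naive and rose in TH1 cells (differences 4.49 ± 0.37 and 5.16 ± 0.31, adjusted p = 2.6e-10 and 1.58e-09). Gzmb, the serine protease granzyme B, rose from a median of 862 to 2402 CPM on recall, yet its difference was -4.49 ± 0.77 (adjusted p = 0.0057). Naive cells had gone from 0, 0.0184 and 0.0712 CPM to 0.705, 1.34 and 5.24, a larger fold at a far lower level.

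**Figure D3:**
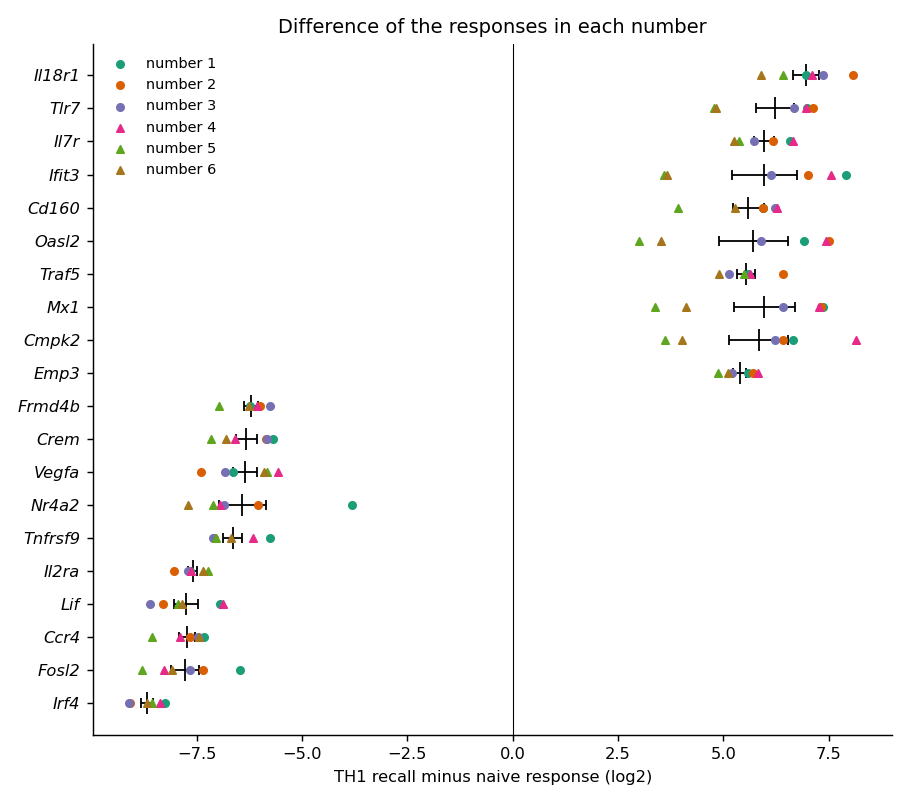
The difference of the responses (log2) for the 10 highest and 10 lowest genes at 1 CPM or more in every group, 1 symbol per number, with a vertical bar at the mean over the 6 numbers and a horizontal bar of 1 SE to each side. Every symbol of the upper 10 genes lies right of 0 and every symbol of the lower 10 left of 0, as the naming rule required; numbers 5 and 6 give the smallest values for Ifit3, Oasl2, Mx1 and Cmpk2.

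Of 32 tested genes that mark resting naive cells, 21 fell in both states, against 3411 of all 12584 genes. The difference was higher for 20, that is they mostly fell further in naive cells, and lower for 3. Over all genes 34.5% were higher and 34.0% lower. Median responses of the 32 genes were -3.00 in naive and -1.62 in TH1 cells. Il7r (chr15:9505788-9530176), the receptor chain for interleukin-7, fell from 311, 431 and 545 to 0.973, 1.71 and 2.65 CPM in naive libraries. In TH1 cells it fell from 204, 242.9 and 286 to 44.7, 58.6 and 76.3 CPM. TH1 cells held less Il7r than naive cells at rest and more than 10-fold more after stimulation, with no overlap at either time, giving a difference of 5.96 ± 0.24 (adjusted p = 6.71e-15). S1pr1, the receptor for egress from lymphoid tissue, differed by 1.41 ± 0.32 (adjusted p = 0.00168). Klf2, a factor that maintains quiescence and drives S1pr1, fell by 3.81 and 3.71, and its difference of 0.10 ± 0.41 had adjusted p = 0.832. Satb1, a chromatin organiser, and Id3, an inhibitor of E proteins, were exceptions, with lower differences of -2.21 ± 0.18 and -1.30 ± 0.31 (adjusted p = 2.66e-12 and 0.000214). Ccr7, the lymph node homing receptor, had a difference of 0.72 ± 0.64 with adjusted p = 0.254. Its activated naive libraries ranged widely, from 72.1 to 770.1 CPM.

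Emp3, a membrane protein, fell from a median of 129 to 2.50 CPM in naive cells and fell from 59.7 to 49.9 CPM in TH1 cells (difference 5.39 ± 0.15, adjusted p = 9.45e-20). Itgb7, an integrin chain for homing to the gut, fell by 6.93 and by 2.47 (difference 4.46 ± 0.17, adjusted p = 9.76e-16). Of 24 tested genes of migration and adhesion, 11 were higher and 7 lower, and of 25 tested cytokine receptors 12 were higher and 8 lower. Over all genes 34.5% were higher and 34.0% lower. Cd247 and Thy1, a signalling chain of the T cell receptor and a surface glycoprotein of T cells, fell in naive and rose in TH1 cells (differences 3.28 ± 0.12 and 3.13 ± 0.13, adjusted p = 8.64e-17 and 3.38e-16). Zap70 and Cd5, a receptor-proximal kinase and a damper of receptor signalling, rose in both states and rose more in naive cells (differences -1.55 ± 0.10 and -1.43 ± 0.10, adjusted p = 7.73e-13 and 4.71e-11).

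Most interferon-response genes fell on naive activation. Of 54 tested, 45 fell and 2 rose in naive cells, against 40.8% and 41.3% of all genes. In TH1 cells 24 rose and 17 fell, against all-gene shares of 40.1% and 40.2%. The difference was higher for 40 and lower for 5, against 34.5% and 34.0% over all genes, with a median of 1.95 on the log2 scale. The 5 lower genes included Socs1 (difference -2.33 ± 0.23) and Gbp2 (difference -1.496 ± 0.21), a signalling inhibitor and a guanylate-binding protein, both of which fell on recall. Ifit3, a protein that restrains viral translation, had 52.6, 89.0 and 105 CPM in naive and 0.873, 2.86 and 24.7 in activated naive libraries. It had 0.552, 1.32 and 2.69 CPM in effector and 1.36, 3.81 and 13.8 in reactivated libraries (difference 5.89 ± 0.78, adjusted p = 1.06e-05). The ranges of effector and reactivated libraries overlapped, although all 6 pairs rose. Mx1, an antiviral GTPase, went from 10.4, 21.5 and 23.6 to 0.839, 3.78 and 31.6 CPM in naive and from 4.70, 5.21 and 6.48 to 30.9, 91.5 and 170.2 CPM in TH1 cells. The TH1 groups did not overlap and the naive groups did (difference 5.48 ± 0.73, adjusted p = 1.29e-05). Oasl2, Cmpk2 and Tlr7, an oligoadenylate synthetase-like protein, a mitochondrial nucleotide kinase and an endosomal sensor of RNA, had differences of 5.56 ± 0.81, 5.45 ± 0.70 and 6.16 ± 0.46 (adjusted p = 1.43e-06, 1.29e-06 and 2.89e-10).

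Numbers 5 and 6 stood apart from the others in these genes. The mean level of the list in activated naive libraries was 4.58, 4.65, 5.09 and 5.002 log2 CPM for numbers 1 to 4 and 6.50 and 6.37 for numbers 5 and 6, while naive libraries lay between 6.83 and 7.30 in all numbers. The median difference by number was 2.26, 2.396, 2.53 and 2.75 for numbers 1 to 4 and 0.99 and 1.22 for numbers 5 and 6. Ifit3 fell by 6.64, 5.81, 4.79 and 5.73 in naive numbers 1 to 4 and by 1.25 and 1.72 in numbers 5 and 6. The difference was nonetheless positive in all 6 numbers. Without numbers 5 and 6 the list had 41 higher and 5 lower differences, in run 1 alone 39 and 6, and in run 2 alone 36 and 2. The labels give nothing that sets numbers 5 and 6 apart from number 4 of the same run, and the part of the co-cultured macrophages in the recall rise was not tested.

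**Figure D4:**
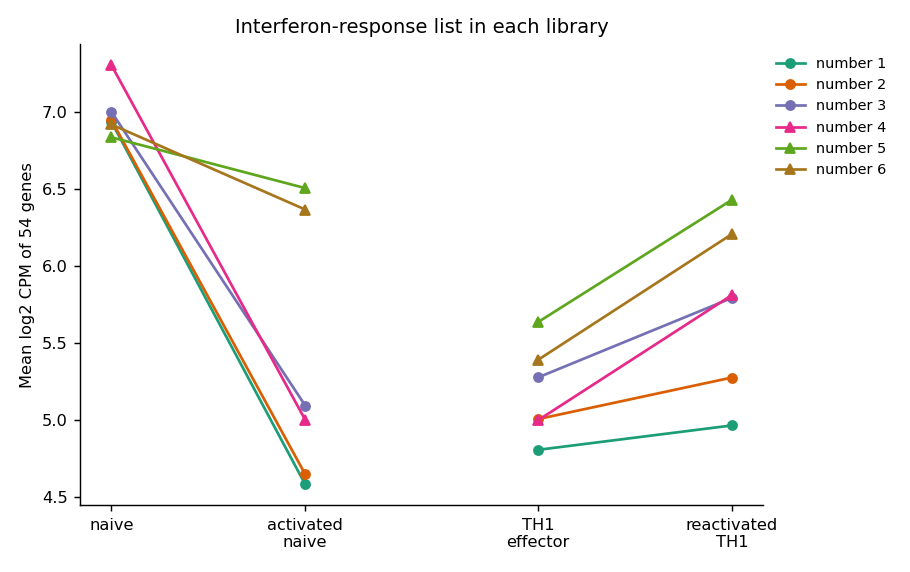
Mean log2 CPM of the 54 tested interferon-response genes in each library, with lines joining naive to activated naive and TH1 effector to reactivated TH1 libraries of the same number (circles for run 1, triangles for run 2). Numbers 1 to 4 dropped from between 6.94 and 7.30 to between 4.58 and 5.09 on naive activation, numbers 5 and 6 dropped less, and all 6 numbers rose on recall.

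Promoters of these genes are shown because many hold a sequence element through which interferon signalling can act. No other interferon element was searched. The interferon-stimulated response element was searched as GAAANNGAAA on both strands in RefSeq windows of GRCm38.p6, from 250 bases before to 50 after each gene's start. At least 1 match was found for 23 of the 41 list genes with a window (56.1%), and for 358 of the 9328 tested genes with a window (3.84%). Of the 30 called higher with a window, 17 held a match (56.7%). The 4 called genes of the list with the highest difference among those with a match are given as the 250 bases before the start, 5′ to 3′ on the gene's strand, with matches of either orientation in capitals. Ifit3 is from chr19:34583279-34583528 on the plus strand, Ifit1 from chr19:34640639-34640888 on the plus strand, Rsad2 from chr12:26456453-26456702 on the minus strand and Oas1a from chr5:120907526-120907775 on the minus strand.
Ifit3: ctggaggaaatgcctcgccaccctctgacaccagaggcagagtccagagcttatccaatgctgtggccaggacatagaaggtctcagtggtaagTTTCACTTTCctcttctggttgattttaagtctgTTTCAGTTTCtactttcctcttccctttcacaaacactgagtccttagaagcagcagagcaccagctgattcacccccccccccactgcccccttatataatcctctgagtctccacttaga
Ifit1: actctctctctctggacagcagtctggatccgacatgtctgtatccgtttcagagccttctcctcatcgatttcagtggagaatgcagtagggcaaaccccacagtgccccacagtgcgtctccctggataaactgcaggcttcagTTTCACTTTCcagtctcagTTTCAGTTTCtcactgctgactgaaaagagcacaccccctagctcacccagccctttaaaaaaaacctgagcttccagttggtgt
Rsad2: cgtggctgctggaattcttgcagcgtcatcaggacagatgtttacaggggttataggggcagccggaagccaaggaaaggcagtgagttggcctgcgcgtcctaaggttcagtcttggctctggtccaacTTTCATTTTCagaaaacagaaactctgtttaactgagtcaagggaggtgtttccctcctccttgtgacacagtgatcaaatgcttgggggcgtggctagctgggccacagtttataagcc
Oas1a: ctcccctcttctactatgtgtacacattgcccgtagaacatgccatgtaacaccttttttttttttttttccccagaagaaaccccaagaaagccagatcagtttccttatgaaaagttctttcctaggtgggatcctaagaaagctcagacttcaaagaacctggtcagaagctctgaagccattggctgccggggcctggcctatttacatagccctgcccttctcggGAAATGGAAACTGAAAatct
The matches of Ifit3 began 156 and 122 bases before the start, those of Ifit1 104 and 85, that of Rsad2 120, and the overlapping pair of Oas1a 20 and 14. Ifit1, Rsad2 and Oas1a, which encode an RNA-binding protein, an enzyme that makes a chain-terminating nucleotide and an oligoadenylate synthetase, had differences of 5.22 ± 0.69, 5.07 ± 0.66 and 4.57 ± 0.41. Their adjusted p was 2.51e-06, 1.16e-05 and 3.4e-08. The Oasl2 window held no match, which says only that these letters are not in that window. The AP-1 site TGANTCA was in 6.196% of all tested genes with a window, in 8.13% of those that rose in naive and fell in TH1 cells and in 5.88% of those that did the reverse. The cyclic AMP response element TGACGTCA, which is its own reverse complement, was in 3.63% of all tested genes with a window. A match is a description of sequence and does not show binding.

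Genes of growth metabolism mostly rose more in naive cells. All 45 tested genes of ribosome production rose in both states, with medians of 2.51 in naive and 1.55 in TH1 cells. Of these, 40 were lower and 1 higher (median -0.87), against 34.0% and 34.5% over all genes. Gnl3, a nucleolar GTPase, went from 57.5, 63.3 and 68.3 to 526, 579 and 601 CPM in naive and from 109.9, 119 and 138 to 326, 366 and 402 CPM in TH1 cells. All 4 groups were separate, with the smaller rise on recall (difference -1.58 ± 0.052, adjusted p = 5.56e-14). Odc1, the rate-limiting enzyme of polyamine synthesis, differed by -3.68 ± 0.20 (adjusted p = 1.37e-14). Wdr12, a ribosome assembly factor, was the exception with a difference of 0.37 ± 0.059 (adjusted p = 9.99e-05), which was not called when tested above 1.5-fold (adjusted p = 1.0; 2.93e-05 to 1.0 over all alternatives).

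Amino acid supply showed a stronger contrast. Of 40 tested genes, 38 rose in naive and 30 in TH1 cells, against 41.3% and 40.1% of all genes. The difference was lower for 35 and higher for 1, against 34.0% and 34.5% over all genes, with a median of -2.34. Bcat1, which transaminates branched-chain amino acids, had a single count in all naive libraries and 144, 189 and 238.3 CPM after activation. It rose from 43.6, 60.5 and 64.8 to 282, 331 and 373 CPM on recall (recall response 2.54 ± 0.037, difference -11.48, adjusted p = 2.5e-17). The naive ratio of 27778 has a counting interval of 4985 to 1097210. Chac1, a glutathione-degrading target of ATF4, had 0 naive counts and rose at least 287-fold to 4.21, 6.09 and 7.20 CPM, and moved from 6.52, 9.03 and 11.4 to 8.32, 12.8 and 21.1 CPM in TH1 cells.

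In glycolysis and cholesterol synthesis, 13 of 24 and 16 of 32 tested genes rose in naive and fell in TH1 cells. A further 8 and 9 fell in both, and 2 and 2 rose in both. Over all 12584 genes, 779 rose in naive and fell in TH1 cells, 3411 fell in both and 3585 rose in both. Of 24 tested glycolysis genes, 15 rose and 8 fell in naive cells, whereas 2 rose and 22 fell in TH1 cells. Over all genes 41.3% rose and 40.8% fell in naive cells, and 40.1% rose and 40.2% fell in TH1 cells. The difference was lower for 18 and higher for 3, against 34.0% and 34.5% over all genes, with a median of -1.72. Hk2, the inducible hexokinase, rose from 0.0342, 0.161 and 0.204 to 51.3, 58.1 and 69.0 CPM in naive and fell from 288, 310.1 and 324 to 204, 225 and 265 CPM in TH1 cells. Even after recall, every TH1 library held more Hk2 than any activated naive library (difference -9.15 ± 0.39, adjusted p = 9.45e-20). Slc16a3, a lactate exporter, rose by 4.64 ± 0.10 and fell by 2.82. Of 32 tested genes of cholesterol and lipid synthesis, 20 rose and 9 fell in naive cells, and 2 rose and 28 fell in TH1 cells. The difference was lower for 27 and higher for 2, with a median of -1.68. All-gene shares are as given for glycolysis. Lss, the synthase that closes the sterol rings, moved from 23.6, 28.4 and 30.5 to 63.5, 73.8 and 90.4 CPM and from 74.2, 104 and 133 to 21.6, 25.1 and 29.3 CPM. Resting and stimulated libraries were apart in both states, with opposite signs (difference -3.42 ± 0.24, adjusted p = 6.82e-14).

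Smaller shifts ran through 2 further groups. Of 45 genes of oxidative phosphorylation, 31 were lower and 3 higher with a median of -0.50, against 34.0% and 34.5% over all genes. In naive cells 36 rose and in TH1 cells 16, against 41.3% and 40.1% of all genes. Uqcrq and Cox5a, subunits of complexes III and IV, had differences of -1.31 ± 0.11 and -1.31 ± 0.08 (adjusted p = 4.84e-10 and 1e-11). Of 38 chaperone genes, 34 rose in naive and 35 in TH1 cells, against the same all-gene shares of 41.3% and 40.1%. The difference was lower for 32 and higher for 4, with a median of -0.68, against 34.0% and 34.5% over all genes. Hspa4l, a cochaperone of the HSP110 family, rose by 4.003 ± 0.092 and 0.73 ± 0.094. Hspa1b, the stress-inducible HSP70, went the other way, from 11.0, 18.7 and 47.4 to 0.242, 0.437 and 1.11 CPM in naive and from 0.319, 0.488 and 0.842 to 1.41, 2.72 and 3.67 CPM in TH1 cells (difference 7.61 ± 0.31, adjusted p = 1.4e-11).

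**Figure D5:**
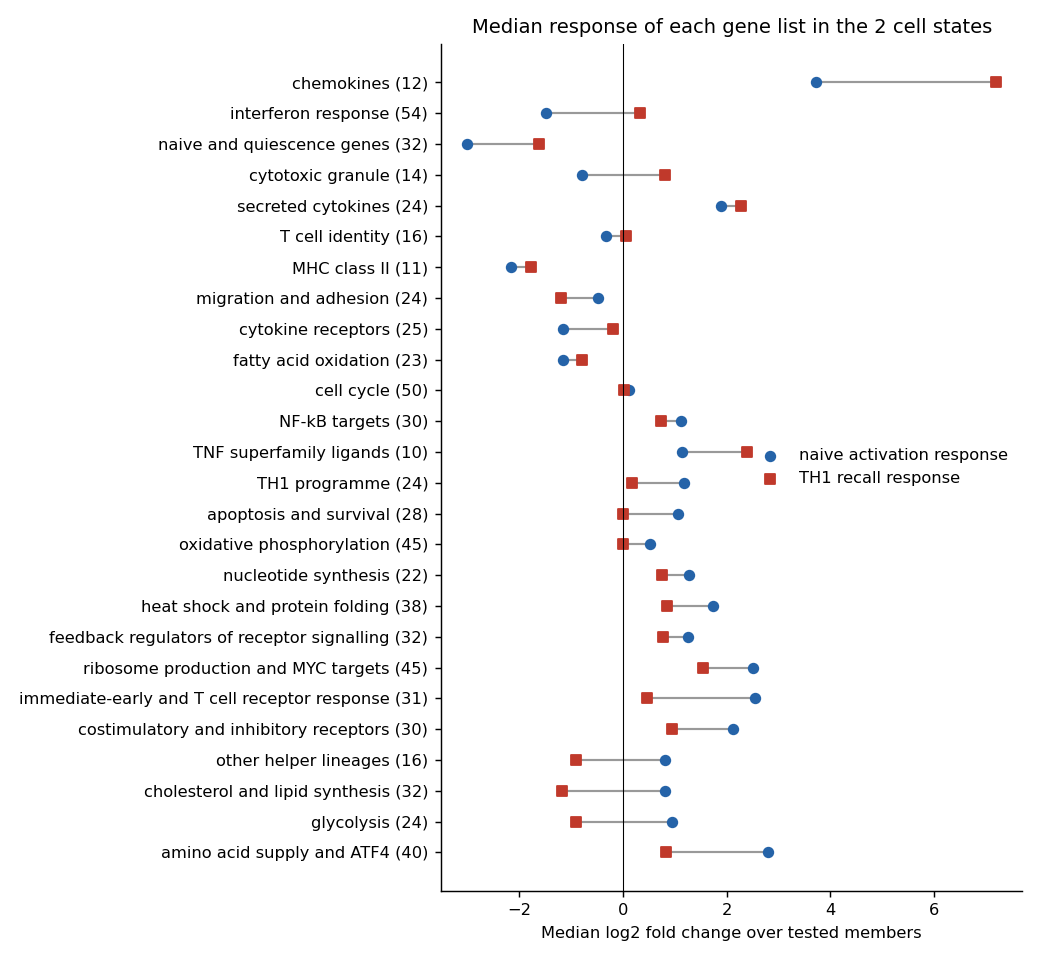
Median log2 fold change over the tested members (number in brackets) of 26 gene lists for the naive response (blue circles) and the recall response (red squares), ordered by the median difference. Chemokines stand far right with 3.73 and 7.19, interferon-response and cytotoxic lists cross from below to above 0, and glycolysis and cholesterol lists cross from above to below 0.

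Reversal of direction was examined gene by gene. By the naming rule, which asks for a mean of 1 CPM in every group and ranks by the smaller of the 2 changes, Frmd4b and Smox followed Ccr4 among genes that rose in naive and fell in TH1 cells. Frmd4b, a scaffold protein with a FERM domain, had responses of 2.99 ± 0.19 and -3.23 ± 0.27, and Smox, the spermine oxidase, 2.74 ± 0.14 and -3.02 ± 0.17. In the opposite class, H2-T24, a nonclassical MHC class I gene, fell from 105, 118 and 144 to 12.8, 18.1 and 37.5 CPM in naive and rose from 7.67, 8.67 and 9.52 to 38.7, 44.5 and 49.3 CPM in TH1 cells (difference 4.90 ± 0.31, adjusted p = 1.66e-11). Traf5, a signalling adaptor of TNF receptors, fell from 24.6, 29.9 and 31.9 to 2.06, 3.21 and 3.33 CPM and rose from 2.30, 3.11 and 3.83 to 8.86, 13.2 and 21.0 CPM, with all pairs moving the same way within each state (difference 5.54 ± 0.21, adjusted p = 3.52e-15).

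At the other end, 128 genes had like responses: both called, at least 4-fold in the same direction, with the 95% interval of the difference within 1 log2 unit of 0. Of these, 61 rose, out of 297 that rose at least 4-fold in both states, and 67 fell, out of 487. Next to Tnf, Rel, the c-Rel subunit of NF-kB, rose by 3.48 ± 0.13 and 3.19 ± 0.20; its difference of -0.29 ± 0.18 (adjusted p = 0.226) was past the threshold in run 2 alone (-0.63, adjusted p = 0.00462; 0.00462 to 1.0 over all alternatives). Smyd5, a methyltransferase, rose by 3.62 ± 0.049 and 2.92 ± 0.14, and its small difference of -0.70 ± 0.12 was past the threshold (adjusted p = 2.02e-05) but not when tested above 1.5-fold (adjusted p = 0.143; 5.16e-08 to 0.143 over all alternatives). Among genes that fell, Nipal3, a magnesium transporter family member, fell by 3.25 and 3.51, and Arrb1, a beta-arrestin, by 3.66 and 4.21 (differences -0.27 ± 0.078 and -0.55 ± 0.091, adjusted p = 0.0715 and 0.0104). Over the alternatives adjusted p ranged from 0.0329 to 1.0 for Nipal3, called in 4 of 17, and from 0.00197 to 0.584 for Arrb1, not called in run 2 alone (0.0506) or when tested above 1.5-fold (0.584). Of 30 tested NF-kB targets, 11 were higher and 14 lower, against 34.5% and 34.0% over all genes, and the higher count ranged from 6 to 12 over the alternatives.

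A larger fold is not always a larger gain in CPM, since naive cells started near 0 for several effector genes. The gain in CPM, stimulated minus resting, was therefore set beside the log2 difference; this measure was added after the log2 results were seen. Of the 4275 genes with a lower log2 difference, 366 (8.56%) gained more CPM in TH1 cells, 175 of them in all 6 numbers, and 272 of the 366 rose in both states. Of the 4345 with a higher difference, 313 (7.20%) went the other way, 152 in all 6 numbers. Tnfrsf9, the costimulatory receptor 4-1BB, showed this. It moved from 0.961, 1.31 and 2.10 to 471, 535 and 659 CPM in naive and from 367, 439 and 462 to 1555, 1604 and 1706 CPM in TH1 cells. Its log2 difference was -6.62 ± 0.23 (adjusted p = 4.18e-19), yet the mean gain was 1192 CPM on recall against 550.1 CPM in naive cells, larger on recall in all 6 numbers.

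The same held for Tbx21, with gains of 38.2 and 94.5 CPM in naive and TH1 cells, for Bcat1 (189.5 and 273 CPM), for Lag3 (6.57 and 411 CPM) and for Gzmb (1.88 and 1444 CPM), each larger on recall in all 6 numbers. For Dusp4 (53.7 and 61.8 CPM) the gain was larger on recall in 3 of 6 numbers only. Irf4 kept its direction on both scales, with gains of 3436 CPM in naive and 189.8 CPM in TH1 cells, as did Myc with 967 and 133 CPM.

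Of 50 tested cell cycle genes, 13 were higher, 14 lower and 23 without a call, no more than the all-gene shares of 34.5% and 34.0%, with medians of 0.13 and 0.023 in the 2 states. E2f2, an activator of S-phase genes, fell from 14.4, 20.8 and 21.8 to 0, 0.0576 and 0.441 CPM in naive and from 95.7, 114 and 133 to 28.6, 41.6 and 44.5 CPM in TH1 cells (difference 5.58 ± 0.67, adjusted p = 9.15e-13). Bcl2, the survival factor, rose by 0.37 ± 0.12 in naive cells and fell from 835, 985 and 1086 to 107, 140.4 and 185 CPM on recall (difference -3.18 ± 0.12, adjusted p = 1.74e-14); of 28 tested apoptosis and survival genes, 8 were higher and 13 lower. Among 11 tested genes of MHC class II, 5 were higher and 4 lower. H2-Aa, a chain of the antigen-presenting I-A molecule, rose from 0.188, 0.451 and 0.613 to 27.0, 34.3 and 51.9 CPM in naive cells, and its recall response was 0.31 ± 0.33 (adjusted p = 0.369; difference -6.12 ± 0.39, adjusted p = 9.67e-09). B cells also carry this gene; 10 of 12 listed B cell markers were in the files, and their summed level was 1.10 to 4.41 CPM in naive, 0.369 to 0.676 CPM in activated naive, 5.94 to 32.3 CPM in TH1 effector and 1.19 to 2.45 CPM in reactivated TH1 libraries. Neither the part of B cells in these values nor that of the co-cultured macrophages was tested. Nucleotide synthesis genes were lower for 14 and higher for 4 of 22, and fatty acid oxidation genes higher for 11 and lower for 7 of 23.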

How the data were processed

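RNA was sequenced from 24 libraries, 6 in each of 4 groups. The authors deposited raw read counts per gene (23420 symbols and 5 lines for unassigned reads, which were left out); the submitters' processing notes name STAR, HTSeq, DESeq2 and mm10, with roles, annotation and strand setting not given in the sources used here. Numbers 1 to 3 and 4 to 6 were sequenced in 2 runs. Counts were tested with edgeR 4.0.16 in R 4.3.3 (limma 3.58.1): filterByExpr, TMM scaling, quasi-likelihood F tests of a model with group and number, and Benjamini-Hochberg adjustment over 12584 genes at 0.05. The number is a term because libraries were paired by it. SEs come from log2 CPM (prior count 0.5) per number. On simulated counts (12424 genes) the difference was called for 35 of 50 genes changed 1.5-fold, 46 of 50 changed 2-fold and 47 of 50 changed 4-fold. It was called for 7 of 12224 unchanged genes. Changed genes had a mean above 5 CPM over the groups, and each number had a shift shared by all groups. The simulation thus does not cover genes at low levels or responses that vary by number. Named genes were the 10 highest and 10 lowest differences, the 5 highest and 5 lowest with a group under 1 CPM, the leading opposite and like responses, up to 2 called genes each way per list, and a fixed set of T cell genes; some of these genes are not reported here. Ifit1, Rsad2, Oas1a and the marker genes fall outside that rule and were chosen after their values were seen. The members and the 31 lists were chosen with earlier results of these data known. Alternatives were other scalings, filters and models, DESeq2 1.42.0, each run alone and libraries left out. Counting intervals and floors cover counting error only.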

Additional observations from a re-analysis of the deposited data

Results flagged for a closer look

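One number stood far from the other 5 for 4 genes, by a criterion that chance meets in about 1 of 20 groups of 6. For Egr3 the difference of the responses was -2.37 in number 3 against -1.43 to -0.97 in the others. For Fam101b it was 9.15 in number 3 against 6.66 to 7.58. For H2-Aa it was -4.13 in number 4 against -6.71 to -5.93. For Il3 it was 15.44 in number 5 against 7.68 to 10.5, and the effector libraries that set this value held between 0 and 0.424 CPM.

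Further named genes changed past the threshold and at least 2-fold in opposite directions in the 2 states, and the test of the difference passed for each one given here. The difference of the responses (log2) was positive for Cmpk2 (5.45), H2-T24 (4.90), Hspa1b (7.61), Ifit3 (5.89), Mx1 (5.48), Mx2 (5.78), Oasl2 (5.56), Serpinb6b (5.16), Serpinb9 (4.49), Tlr7 (6.16), Tnfaip3 (3.11), Tnfsf10 (3.81) and Traf5 (5.54), which fell in naive and rose in TH1 cells. It was negative for Batf3 (-7.51), Ccr4 (-7.70), Crem (-6.35), Ctla4 (-4.76), Fosl2 (-7.78), Frmd4b (-6.22), H2-Ab1 (-4.56), Il12rb2 (-6.05), Il2ra (-7.60), Lif (-7.68), Lss (-3.42), Map3k8 (-3.74), Slc16a3 (-7.46), Smox (-5.77), Socs1 (-2.33) and Tnfrsf8 (-8.04), which rose in naive and fell in TH1 cells. It was also negative for Atf3 (-15.72), Fads2 (-6.43), Gp49a (-11.43), Lrrc32 (-12.30) and Stc1 (-11.27), whose fitted values are large and uncertain where naive libraries held almost no counts: Atf3 had 0 naive counts, Lrrc32 had 2 and Fads2 had 1. Batf3 and Tnfrsf8 also had 0 naive counts.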

How the results depend on the processing

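The difference of the responses kept its direction for every named gene with a called difference under each of 17 alternatives, and 134 named genes, called or not, stayed on the same side of the threshold throughout; of 2686 comparisons, 41 lost and 15 gained a call. Testing for a change above 1.5-fold left 4474 called differences (2253 higher, 2221 lower), 5443 recall responses, and 258 and 88 genes with opposite responses (rose in naive and fell in TH1 cells, and the reverse). Run 2 alone gave 450 genes that fell in naive and rose in TH1 cells and 55 like responses. Leaving out 1 number at a time gave 8085 to 8374 called differences, 4082 to 4237 higher and 4003 to 4238 lower. In those fits 10064 to 10217 naive and 9720 to 9967 recall responses were called. Scaling by DESeq2's size factors moved the median of all genes to -0.053 and gave 4103 higher and 4509 lower, and library size alone moved it to 0.039 and gave 4584 and 4056. Without the number as a block, 8553 differences were called with run as a term and 8235 with group only. Deviations of same-numbered libraries correlated at 0.0755 to 0.379 (35 of 36 pairs over 0.1), so the pairing is a hint from the data and not a fact of the design. Of the oxidative phosphorylation genes, 10 were called lower when tested for a change above 1.5-fold, and 28 to 36 under the other alternatives. The same test took the lower calls from 32 to 16 of the chaperone genes and 14 to 7 of nucleotide synthesis. It took them from 40 to 28 of ribosome production and MYC targets, 14 to 7 of cell cycle and 8 to 5 of cytokine receptors. For fatty acid oxidation they went from 7 to 3, and for T cell identity from 6 to 3. The 1.5-fold test took the higher calls from 11 to 6 of fatty acid oxidation, 11 to 6 of NF-kB targets and 8 to 2 of apoptosis genes. In run 2 alone the higher calls of these last 2 lists were 7 and 5, and those of secreted cytokines 3 in place of 6. Genes near 0 counts in naive libraries carry fold changes that depth limits.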
